A study of Rattus norvegicus with 24 samples.

Results

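The 75 genes described here had counts that rose strongly after lipopolysaccharide (LPS) in the microglia of normoxic rat pups of both sexes. Some genes that rose more were left out. They were taken from the 32754 genes with a row in the count files. RNA was sequenced from postnatal day 9 Sprague-Dawley microglia, the resident macrophages of the brain, isolated with a magnetic antibody to CD11b/c, surface proteins that myeloid cells other than microglia carry too. From postnatal day 1, pups were kept with their dams for 8 days, 8 h per day, in room air at 21% O2 (Nx) or in intermittent hypoxia (IH), with 2 min cycles between 10.5% and 21% O2. About 16 h after the last exposure they received an intraperitoneal injection of vehicle or LPS, and brains were taken 3 h later. There were 3 samples in each of 8 groups: male and female Nx, Nx LPS, IH and IH LPS. The series text gives LPS as 0.1 mg/kg, whereas the sample labels give 0.1 mg/mL; the vehicle is saline in the labels and HBSS in the study's methods.

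LPS is a component of the outer membrane of Gram-negative bacteria. Macrophages and microglia sense it with CD14, MD-2 and the Toll-like receptor TLR4, whose adaptors MyD88 and TRIF lead to the transcription factors NF-κB, AP-1 and interferon regulatory factors. Within hours such cells make chemokines, cytokines, adhesion molecules and interferon-stimulated proteins, together with inhibitors that shut the response down. These are the kinds of genes known from LPS responses in general, and were not read from the members, because no source used here pairs the members' Ensembl identifiers with gene symbols. For the same reason no promoter or protein could be matched to a member, and the microglial label could not be checked against marker genes. In bulk samples such as these, more RNA per cell and more cells that carry an RNA cannot be told apart.

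Members were chosen by L, the log2 ratio of the mean counts scaled to library size (CPM, the count of a gene relative to all gene counts of its sample) plus 1 in Nx LPS over the same in Nx. A gene had to have an L of 2 or more, a 4-fold rise, in males and in females, and a mean of at least 5 CPM in both Nx LPS groups. The level criterion was met by 9365 genes, and an L of 2 by 100 of them in males and 108 in females. Both were met by 86 genes. Of these, 7 were left out because the study names them and 4 because their identifiers had been set aside, which left 75. The study lists these 7 as lower in IH LPS than in Nx LPS females. Among them Cxcl10 had an L of 7.90 in males and 8.33 in females, above every member. For the same ratio of IH LPS over IH it had 6.12 and 6.50. In females this ratio was below L in Nx for all 7. In males it was above it for Sele (3.91 against 3.48) and Cxcl1 (3.94 against 3.59) and below it for the others. The counts for IH below do not include these genes. The members nearest the threshold had a smaller L of 2.03, 2.05 and 2.07, and the nearest genes outside it 1.999, 1.995 and 1.992. All 75 members passed the filter on low counts (CPM above 1 in at least 3 of 24 samples), as did 12860 genes in all. The choice used every Nx and Nx LPS sample, so values in these samples are a description. No IH or IH LPS value entered the criteria on L and CPM, and those samples carry the tests. The study's naming of the 7 genes left out did rest on IH LPS samples.

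In Nx the median L of the members was 2.70 in males (2.03 to 5.70) and 2.69 in females (2.11 to 6.23). The top member by its smaller L was ENSRNOG00000043416. It was counted at 1.92, 1.76 and 2.23 CPM in the 3 male Nx samples and at 178, 25.9 and 219 CPM in male Nx LPS, and at 1.32, 2.21 and 0.926 CPM in female Nx and 217, 124 and 216 CPM in female Nx LPS. Male Nx LPS replicate 2 was the low one, at 25.9 CPM. It was low for most members.

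Each library was then described by the median over the 75 members of log2(CPM + 1). In vehicle samples this level stayed within 2.16 to 2.55 in all 12 libraries of both sexes and both oxygen conditions, and the members took 0.100% to 0.138% of all counts. In female Nx LPS the 3 levels lay close together at 5.38, 5.27 and 5.40. In male Nx LPS they were 5.78, 4.23 and 5.82, in male IH LPS 5.16, 4.86 and 3.67, and in female IH LPS 5.52, 4.39 and 5.25. Every LPS library was thus above every vehicle library, and 3 LPS libraries, 1 in each of these 3 groups, sat apart below the others. The share of counts on the members showed the same libraries as the lowest of their groups, at 0.344% in male Nx LPS replicate 2, 0.238% in male IH LPS replicate 3 and 0.482% in female IH LPS replicate 2, while the other 9 LPS libraries had 0.616% to 1.06%.

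**Figure D1:**
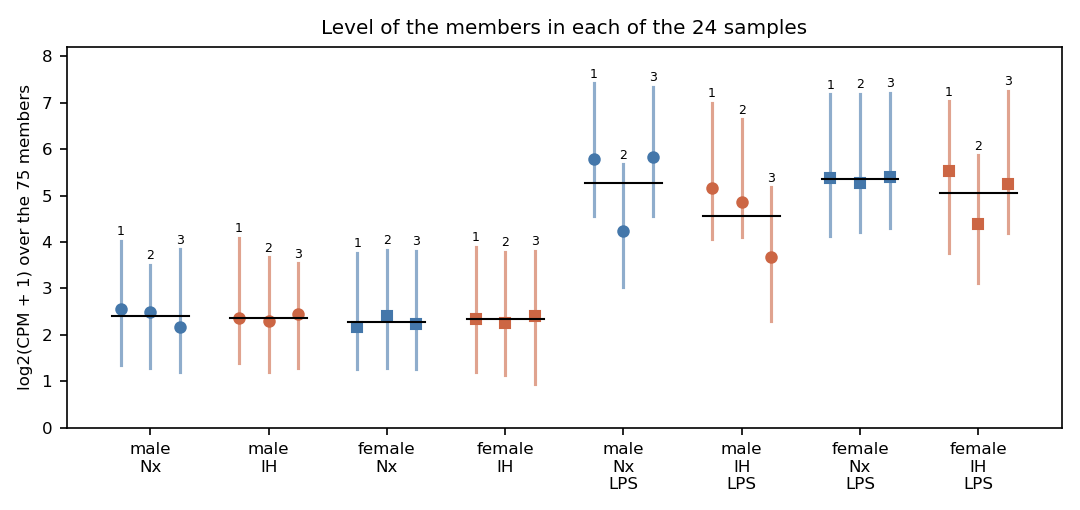
Level of the members in each sample, as log2(CPM + 1): points are the median over the 75 members (circles male, squares female; blue Nx, orange IH), vertical lines the quartiles, black lines the group means, and digits the replicate. Vehicle libraries lie between 2.16 and 2.55 and LPS libraries between 3.67 and 5.82, with male Nx LPS 2, male IH LPS 3 and female IH LPS 2 lowest in their groups.

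These low libraries were not low in depth. Total counts were 7209119, 8548714 and 7509461 in the same order, within a range of 6624453 to 8548714 over the 24 samples. Alignments outside any gene made up 15.4%, 15.1% and 15.0% of their alignments, against 17.0% to 18.7% in the other 9 LPS libraries, and 14.7% to 21.2% in vehicle libraries; its part in the result was not tested. Male IH LPS replicate 3 had the lowest value of the 6 IH LPS samples for 56 of the 75 members, and male Nx LPS replicate 2 the lowest of the 6 Nx LPS samples for 61. Female IH LPS replicate 2 was the lowest of its 3 samples for 51 members. The typical member's standard deviation (SD, n = 3, log2(CPM + 1)) was 1.01 in male IH LPS and 0.84 in female IH LPS, against 0.23 and 0.26 in male and female IH, where all 12860 genes had medians of 0.33, 0.23, 0.17 and 0.22. Of the 7 named genes left out of the members, male IH LPS replicate 3 was the lowest of its 3 samples for all 7, and of the 6 IH LPS samples for all but Sele. Male Nx LPS replicate 2 was the lowest of its 3 samples for all 7 too, but female IH LPS replicate 2 for only 4, and not for Ptgs2, Cxcl1 or Sele. Cxcl10, a chemokine that attracts T cells, stood at 1185, 993 and 21.2 CPM in male IH LPS and at 691, 457 and 1593 CPM in female IH LPS.

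**Figure D2:**
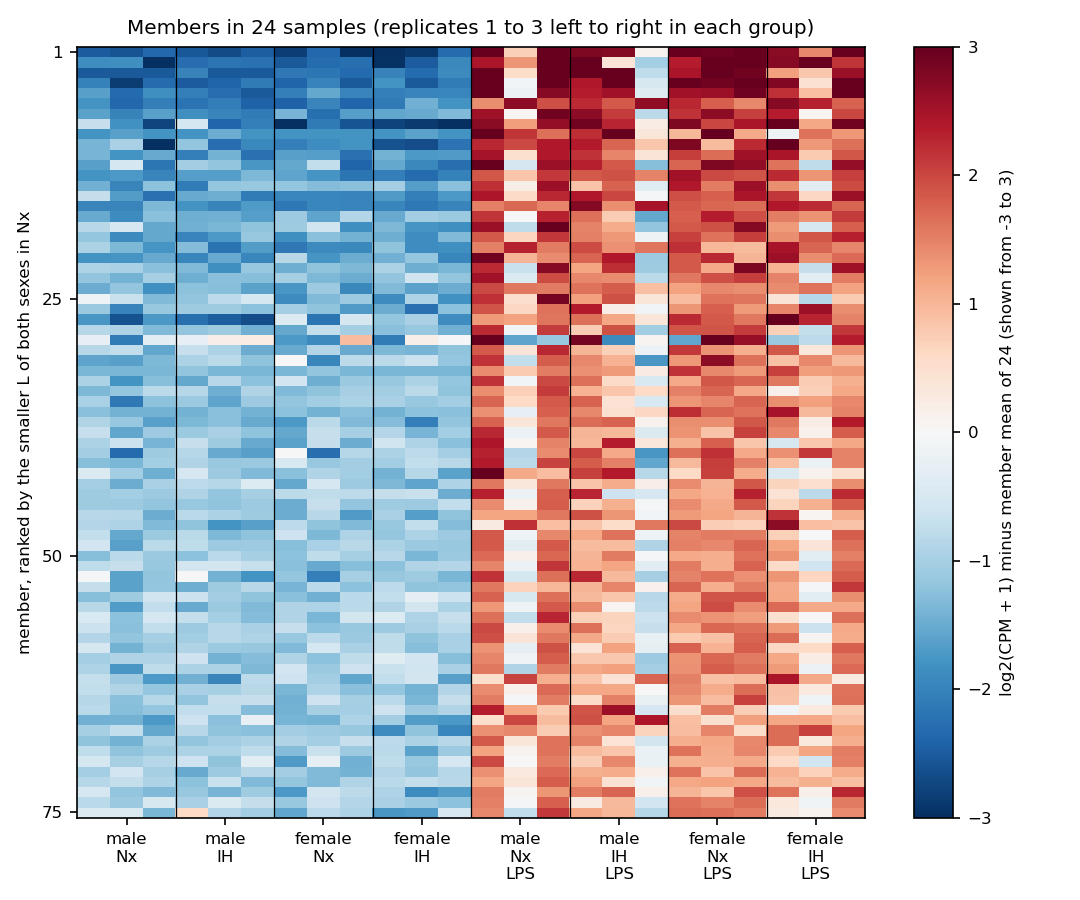
The 75 members (rows, ranked by the smaller L of both sexes in Nx) in 24 samples (columns, replicates 1 to 3 within each group), coloured by log2(CPM + 1) minus the member's mean over 24 samples, with values beyond -3 or 3 drawn at -3 or 3. The 12 vehicle columns on the left are mostly blue and the 12 LPS columns on the right mostly red, and male Nx LPS 2, male IH LPS 3 and female IH LPS 2 are paler.

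The first question was whether the response was kept in IH pups. On the scale of the rule it was kept in direction by every member: L in IH was above 0 for all 75 in both sexes. The median L in IH was 2.21 in males (0.90 to 5.20) and 2.41 in females (1.23 to 5.64), against medians of -0.07 and -0.06 over all tested genes. An L of 2 or more in IH was reached by 48 members in males (64%), where 0.529% of all tested genes reached it, and by 54 members in females (72%), where 0.677% did. It was reached in both sexes by 43 members and in neither by 16. An L of 1 or more was reached by 74 members in males and 75 in females, where 2.09% and 2.73% of all tested genes reached it. Without male IH LPS replicate 3, 57 members reached an L of 2 in males, and without female IH LPS replicate 2, 65 did in females. With 5 CPM in place of 1 added to each mean, 21 reached it in males and 36 in females. The share of all tested genes was not computed for both sexes together, without the low libraries, or with 5 CPM added.

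The members were also split by their smaller L in Nx, which chose them with the same cut of 2, so members just above it could fall below it more readily. Of the 36 members with a smaller L of 2 to 2.5 in Nx, 11 had an L of 2 or more in IH in both sexes. Of the 17 with a smaller L of 2.5 to 3, 10 did, as did all 16 between 3 and 4 and all 6 of 4 or more. ENSRNOG00000043416 had an L in IH of 4.86 in males and 5.64 in females, where it had 5.58 and 6.23 in Nx. ENSRNOG00000029768, the next by its smaller L, had 4.46 and 5.07 in IH and 5.30 and 5.50 in Nx.

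L was lower in IH than in Nx for 64 members in males and 58 in females, for 54 in both sexes, and higher in both sexes for 7. The median difference, IH minus Nx, was -0.44 in males (-1.80 to 0.82) and -0.35 in females (-1.42 to 1.53). Because high values in Nx LPS chose the members, lower values in samples outside the criteria can come from the choice itself. The difference between IH and Nx was not tested. Across members L in Nx and in IH had a Pearson r of 0.89 in males and 0.83 in females, over 75 genes that share the same libraries.

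**Figure D3:**
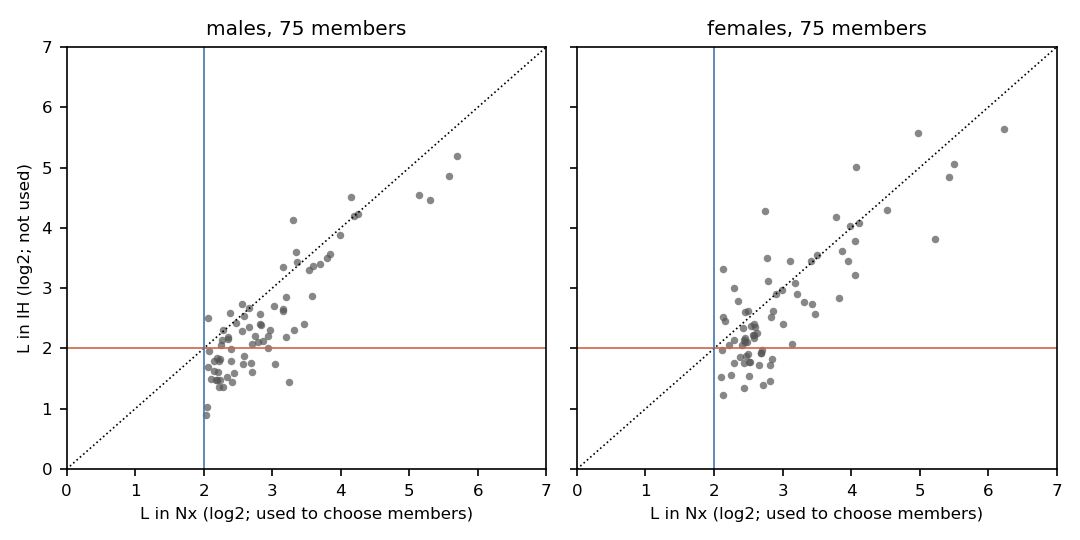
L (log2 of mean CPM + 1 with LPS over vehicle) in Nx on the horizontal axis and in IH on the vertical axis, 1 point per member, males left and females right; coloured lines mark an L of 2 and the dotted line equal values. All 75 points lie above 0 in IH, 48 in males and 54 in females reach 2, and 64 and 58 lie below the dotted line.

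Counts of the 12 IH samples were then tested with edgeR's quasi-likelihood F test, with Benjamini-Hochberg adjustment over all 12860 genes. With the sexes averaged, 73 of 75 members rose with LPS in IH at an FDR below 0.05 and none fell, where 4.26% of all tested genes rose and 1.56% fell. At an unadjusted p below 0.05, 74 members were higher and 0 lower, where 10.6% and 8.66% of all tested genes were. The likelihood ratio test and DESeq2 each called 74 members higher, with 5.96% and 6.41% of all tested genes. The median log2 fold change of the members was 2.70, with a median standard error (SE) of 0.40, and that of all tested genes was -0.01. The 6 IH LPS and 6 IH samples did not overlap in CPM for 53 members, where 1.91% of all tested genes had every IH LPS sample above every IH sample. Without both low IH LPS libraries, which were picked for their low member levels, 74 members were called, the median log2 fold change was 2.89 and 9.34% of all tested genes were called higher.

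ENSRNOG00000043416 was counted at 1.85, 1.59 and 1.99 CPM in male IH and at 114, 111 and 16.7 CPM in male IH LPS. In females it was at 0.865, 1.21 and 2.35 CPM in IH and at 107, 43.9 and 216 CPM in IH LPS. Every LPS sample was above every vehicle sample in both sexes, and its log2 fold change averaged over the sexes was 5.97 ± 0.58 (SE; edgeR, adjusted p = 0.000119). ENSRNOG00000029768 spread more widely: it was at 3.13, 3.43 and 3.24 CPM in male IH and at 245, 25.3 and 8.89 CPM in male IH LPS, so that 1 library held most of its male counts. In females it was at 1.59, 2.57 and 4.31 CPM in IH and at 133, 160 and 88.5 CPM in IH LPS. Its averaged log2 fold change was 5.19 ± 0.70 (SE; edgeR, adjusted p = 0.000882), and in males alone, at 4.85 ± 0.97, it missed the threshold (adjusted p = 0.0510).

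The 2 members that were not called with the sexes averaged were ENSRNOG00000019050 and ENSRNOG00000013862. ENSRNOG00000019050 was at 2.56, 3.92 and 3.98 CPM in male IH and at 30.0, 0.136 and 3.51 CPM in male IH LPS, and at 0, 3.77 and 3.13 CPM in female IH and 0.955, 1.46 and 20.6 CPM in female IH LPS. One library in each LPS group was high, and the others were within or below the vehicle range. Its log2 fold change was 1.78 ± 0.95 (SE; edgeR, adjusted p = 0.340), and it turned to -0.78 in males without male IH LPS replicate 1 and to -0.89 in females without female IH LPS replicate 3. In Nx LPS, which chose it, it was at 70.7, 0.416 and 0.937 CPM in males and 0.433, 39.9 and 25.1 CPM in females, so that its male L of 3.24 came from 1 library.

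ENSRNOG00000013862 was the member closest to the threshold of the rule. It was at 10.7, 3.18 and 2.74 CPM in male IH and 16.1, 14.3 and 3.28 CPM in male IH LPS, which overlap, and at 1.30, 1.36 and 4.44 CPM in female IH and 8.24, 7.32 and 19.6 CPM in female IH LPS, which do not. Its log2 fold change was 1.73 ± 0.49 (SE; edgeR, adjusted p = 0.0569), and it passed the threshold in 9 of 20 alternatives and missed it in 11, with adjusted p from 0.00506 (DESeq2) to 0.144 (without female IH LPS replicate 3).

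The steadiest response was that of ENSRNOG00000005871, which had the smallest SE of the 75 members. It was at 6.97, 6.98 and 8.84 CPM in male IH and at 88.1, 92.5 and 69.4 CPM in male IH LPS, and at 5.05, 4.08 and 5.09 CPM in female IH and 116, 61.4 and 102 CPM in female IH LPS. The groups were far apart, and its averaged log2 fold change was 3.94 ± 0.18 (SE; edgeR, adjusted p = 2.48e-07). The highest of the 6 IH LPS samples was 1.87 times the lowest (CPM + 1), where the median over members was 4.88 times and the largest ratio 27.3, for ENSRNOG00000019050. This ratio among the 6 IH vehicle samples had a median of 1.75.

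**Figure D4:**
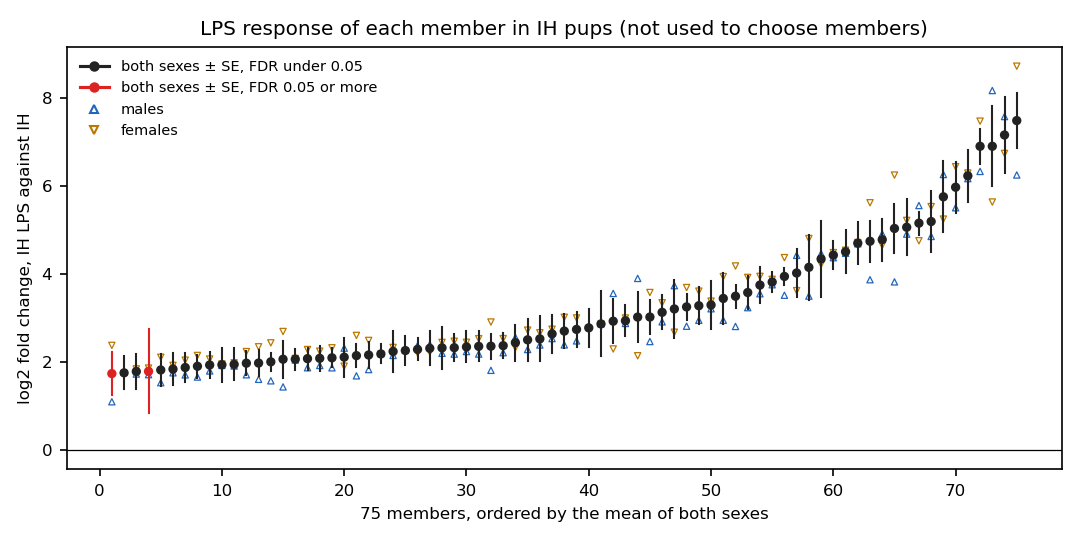
Log2 fold change of IH LPS against IH for each of the 75 members, ordered by the average of both sexes: filled points with bars are the average ± SE (red where the FDR was 0.05 or more), open triangles the males (up) and females (down). All 75 averages lie above 0 and 2 are red, at 1.73 and 1.78.

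Some members were close to silent without LPS. In IH, 14 members in males and 14 in females had a mean below 1 CPM, and none was at 0 in any LPS library. ENSRNOG00000057443, singled out after its values were seen, had no count in any female IH sample, where 3 counts over the 3 libraries correspond to 0.141 CPM. It was at 9.79, 5.19 and 5.40 CPM in female IH LPS, at least 48.6-fold higher over the group. In male IH it had a single count, and it was at 5.67, 5.31 and 2.11 CPM in male IH LPS. Over the 69 members with more than 3 counts in the IH vehicle samples of each sex, the averaged log2 fold changes ran from 1.73 to 5.97, with a median of 2.501.

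The second question was how far the response was seen in each sex alone. In IH males, 33 members rose at an FDR below 0.05 and 0 fell, where 0.459% of all tested genes rose and 0.0233% fell. The median log2 fold change was 2.48 (SE 0.55), and 73 members were higher and 0 lower at an unadjusted p below 0.05 (5.85% and 2.89% of all tested genes). In IH females, 55 rose and 0 fell, where 1.94% of all tested genes rose and 0.435% fell. Their median was 2.72 (SE 0.58), also with the member without a count set at its bound, and 74 were higher and 0 lower at an unadjusted p below 0.05 (8.27% and 6.20% of all tested genes). Both sexes called 32 members, males alone 1 and females alone 23, where 0.443%, 0.0156% and 1.49% of all tested genes were called higher. Neither sex called 19, of which 17 were called with the sexes averaged, as were 2.32% of all tested genes. In CPM, every IH LPS sample was above every IH sample for 61 members in males and 71 in females, where 4.63% and 8.63% of all tested genes were.

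The count in males changed with single libraries, as did the calls over all tested genes. It was 68 without male IH LPS replicate 3, 19 and 20 without male IH LPS replicates 1 and 2, and 6, 6 and 9 without male IH replicates 1, 2 and 3. The share of all tested genes called higher was 2.79%, 0.218%, 0.264%, 0.0700%, 0.0544% and 0.109% in the same order. The median log2 fold change of the members was 2.62, 2.49 and 2.51 without male IH replicates 1, 2 and 3, beside 2.48 with all samples, so fewer calls did not go with a smaller response there. In females the count was 33, 26 and 31 without female IH replicates 1, 2 and 3, 66 without female IH LPS replicate 2, and 71 without male IH LPS replicate 3. That male library was part of the same fit, and how it changed the female count was not tested. The share of all tested genes called higher was 0.638%, 0.443%, 0.692%, 2.54% and 3.50% in the same order. The test also moved the counts: the likelihood ratio test called 65 members in males and 71 in females (1.64% and 3.50% of all tested genes), and DESeq2 64 and 71 (1.65% and 3.78%).

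The difference between these counts is not a test of sex. Tested directly, the LPS response in IH differed between females and males for 0 of 75 members and for 0 of 12860 genes (0% in either direction; edgeR). At an unadjusted p below 0.05, 3 members (4%) had a larger response in females and 0 in males, where 0.762% and 0.840% of all tested genes did, and the likelihood ratio test and DESeq2 called 0 members too. The median difference, female minus male, was 0.28 on the log2 scale, positive for 56 members, with a median SE of 0.78. It was -0.03 without male IH LPS replicate 3 and 0.04 without female IH LPS replicate 3, so its direction changed with 1 library. On simulated counts a difference of 1.5 on the log2 scale was recovered for 35.5% of changed genes. Differences of this size were thus often not detectable with 3 samples a group. The changed genes were drawn at random from all tested genes, with independent noise for each gene. The members varied more between IH LPS samples than all tested genes did. The 35.5% therefore does not give the share of members that could be detected.

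The member with the smallest p for this difference was ENSRNOG00000029212. It was at 2.85, 1.96 and 1.87 CPM in male IH and 16.8, 18.0 and 9.94 CPM in male IH LPS, and at 0.865, 1.96 and 0.783 CPM in female IH and 20.9, 27.3 and 14.6 CPM in female IH LPS. It rose in both sexes, by 2.81 ± 0.35 in males and 4.18 ± 0.38 in females on the log2 scale (SE), and the difference of 1.37 ± 0.51 did not pass the threshold (edgeR, adjusted p = 1.00). ENSRNOG00000005871 rose by 3.51 ± 0.25 in males and 4.37 ± 0.27 in females, a difference of 0.85 ± 0.35 (SE; edgeR, adjusted p = 1.00). In the other direction the smallest p belonged to ENSRNOG00000046699, which rose by 5.55 ± 0.38 in males and 4.75 ± 0.36 in females, a difference of -0.80 ± 0.53 (SE; edgeR, adjusted p = 1.00). ENSRNOG00000001414 followed, at a difference of -1.76 ± 1.19 (SE; edgeR, adjusted p = 1.00). It was at 0.854, 0.857 and 0.249 CPM in male IH and 10.3, 17.3 and 1.17 CPM in male IH LPS, and at 1.01, 0.453 and 0.652 CPM in female IH and 1.91, 2.80 and 4.30 CPM in female IH LPS. Here male IH LPS replicate 3, the low library, lay below all female IH LPS samples and the other 2 male ones lay above them.

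Compared in the IH LPS samples alone, females and males differed for 0 of 75 members at an FDR below 0.05 (edgeR), where 0.0156% of all tested genes were higher in females and 0.0311% lower. At an unadjusted p below 0.05, 2 members (2.67%) were higher in females and 5 (6.67%) lower, close to the 4.39% and 6.14% of all tested genes, and the likelihood ratio test and DESeq2 called none. The median difference was 0.33 (58 members positive), and it was -0.05 without male IH LPS replicate 3 and -0.08 without female IH LPS replicate 3. Without male IH LPS replicate 1, which held most of its male counts, ENSRNOG00000029768 was called higher in females, where 0.0311% of all tested genes were called higher and 0.0311% lower.

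A few members did not follow the others in the low libraries. Male Nx LPS replicate 2 was the highest, not the lowest, of the 6 Nx LPS samples for 5 members, which were singled out for this after their values were seen: ENSRNOG00000006767, ENSRNOG00000014378, ENSRNOG00000046699, ENSRNOG00000050110 and ENSRNOG00000050586. In that library the median rise of the 5 over the vehicle mean was 3.53 on the log2 scale, where the other 70 members had 1.24. ENSRNOG00000050110 and ENSRNOG00000050586 are members only through that library, since without it their male L in Nx was below 2. The IH values did not enter the criterion for the 5, although earlier results of these data were known. Male IH LPS replicate 3 was the highest of the 3 male IH LPS samples for 4 of the 5 and for 0 of the other 70. The share of all tested genes highest in that library was not computed. The median rise in it was 3.13 for the 5 members and 0.86 for the other 70. In male IH LPS replicates 1 and 2 the 5 members rose by 2.60 and 2.11 and the other 70 by 2.74 and 2.45. Female IH LPS did not show this order: replicate 2, the low library, was the highest of the 3 for 1 of the 5 members and for 8 of the other 70. In it the 5 rose by 2.64 and the others by 1.66, and the highest median rise of the 5, 3.74, was in replicate 1. No test was made of this pattern.

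ENSRNOG00000050586 was at 22.8, 89.3 and 35.7 CPM in male Nx LPS and at 34.8, 28.0 and 57.6 CPM in male IH LPS, with 7.54, 4.65 and 5.35 CPM in male IH. In females it was at 126, 35.8 and 34.9 CPM in IH LPS and at 7.93, 10.9 and 7.05 CPM in IH, so that replicate 1 was the high one. ENSRNOG00000050110 was at 14.9, 44.7 and 22.8 CPM in male Nx LPS and at 19.0, 14.0 and 36.0 CPM in male IH LPS, with 3.13, 1.84 and 5.48 CPM in male IH. ENSRNOG00000046699 was at 23.4, 59.0 and 34.4 CPM in male Nx LPS and at 43.2, 32.2 and 58.3 CPM in male IH LPS, with 0.996, 1.22 and 0.747 CPM in male IH. In males, the library that was lowest for most other members was the highest of its group for these 3. In female IH LPS, ENSRNOG00000050110 was at 59.5, 23.3 and 12.4 CPM and ENSRNOG00000046699 at 60.5, 45.0 and 30.9 CPM, so that replicate 1 and not the low replicate 2 was highest. In male IH LPS, ENSRNOG00000006767 was also highest in replicate 3, at 14.4, 8.44 and 21.2 CPM, whereas ENSRNOG00000014378, at 23.6, 15.4 and 18.4 CPM, had its highest value in replicate 1. In female IH LPS, ENSRNOG00000006767 was at 8.24, 8.26 and 6.75 CPM, so that here the low replicate 2 was highest, barely above replicate 1. With the sexes averaged all 5 rose with LPS in IH, with log2 fold changes from 2.77 ± 0.43 to 5.15 ± 0.26 (SE; edgeR, largest adjusted p = 0.00223).

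**Figure D5:**
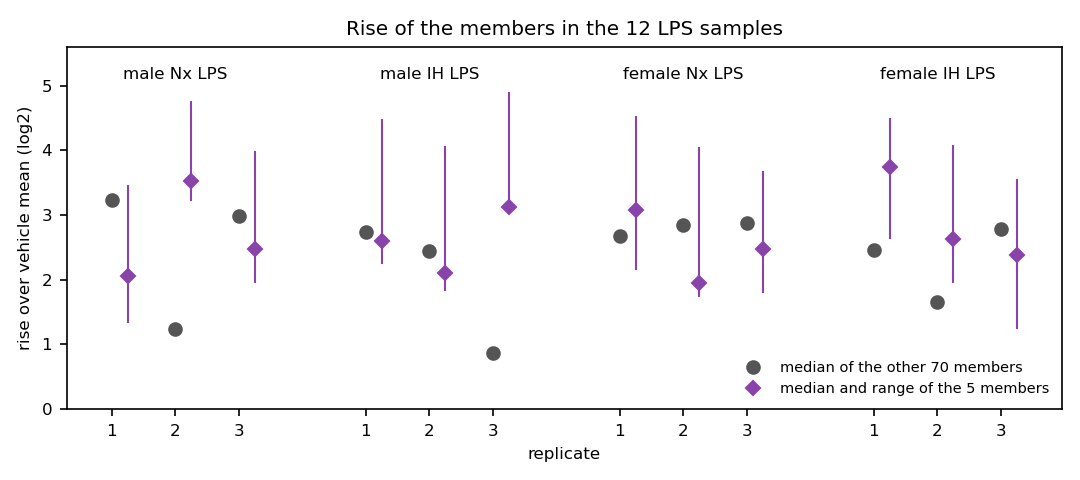
Rise over the vehicle mean of the same sex and oxygen condition, in log2(CPM + 1), in the 12 LPS samples (replicates 1 to 3 by group): grey points are the median of the other 70 members, and purple diamonds with lines the median and range of the 5 members singled out on male Nx LPS 2. In male Nx LPS 2 and male IH LPS 3 the grey points drop to 1.24 and 0.86 while the purple diamonds stand at 3.53 and 3.13.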

How the data were processed

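The authors aligned stranded mRNA reads to rn6 with TopHat 2.1.0, used HTSeq 0.6.1 for counting by Ensembl gene, and deposited whole-number counts for each sample, without normalization or filtering. Summary rows held 28.9% to 38.3% of alignments and were left out of totals and tests. Totals were 6624453 to 8548714 per sample (median 7532796.5).

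CPM was the count over the sum of gene rows. The members, gene lists and tests were chosen with earlier results of these data known. IH samples were fitted with a mean per group (edgeR 4.0.16, R 4.3.3, TMM, quasi-likelihood F test, FDR below 0.05), with DESeq2 1.42.0 and the edgeR likelihood ratio test among the alternatives. A standard error is the size of the fold change over the square root of F. In simulated counts with 200 of 12860 genes changed by 1.5 (log2), 83% were recovered with the sexes averaged, 66.5% in males, 66.5% in females and 35.5% for the difference between them. The 200 genes were drawn at random from all tested genes, so these shares do not hold for the members, which varied more in IH LPS.

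None of the identifiers matched a symbol in the tables at hand, so the planned gene lists, cell type markers and promoter letters were not analysed here. The planned rule for named genes, which took more genes, was narrowed to the 2 members with the largest smaller L, the 2 not called with the sexes averaged, and for the sex difference the 2 members of smallest p each way, plus members singled out after their values were seen. Names of genes left out of the members are those the study pairs with identifiers. Pairs of samples in a group differed by more than sampling noise (chi-square per degree of freedom 7.81 or more). The study calls its samples biological replicates. The labels give no batch or date.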

Additional observations from a re-analysis of the deposited data

Results flagged for a closer look

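In male Nx LPS replicate 2 the median level of the 75 members was 4.23 (log2(CPM + 1)), below the other 5 Nx LPS samples of both sexes, which lay between 5.27 and 5.82. Its gap to the nearest of them was 0.654 of the range of the 6 samples, which is why it is given here. Values in these samples chose the members, so this is a description and no test. The library's share of counts on the members was 0.344%, with a gap of 0.609 of the range. Without this library the rule gave 87 members, of which 73 were among the 75. The members lost were ENSRNOG00000050110 and ENSRNOG00000050586.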

How the results depend on the processing

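With the sexes averaged, 72 to 74 of 75 members were called under other tests, scalings, filters and fits (3.25% to 6.41% of all tested genes called higher), and 71 to 74 with each sample left out (2.65% to 7.21%). Without both low IH LPS libraries, an alternative chosen after seeing the data, 74 were called (9.34%). In males, 33 became 65 with the likelihood ratio test (1.64% of all tested genes called higher, against 0.459%), 64 with DESeq2 (1.65%), 60 without a filter (0.799%), 16 with only the 6 male samples (0.187%), 71 without both low IH LPS libraries (4.05%, an alternative chosen after seeing the data) and 6 to 68 with each sample left out (0.0544% to 2.79%). In females, 55 became 26 to 71 with each sample left out (0.443% to 3.50%, against 1.94%). For sex in the IH LPS samples, 0 became 0 to 1, 1 without male IH LPS replicate 1. An L of 2 or more in IH males was reached by 21 in place of 48 members with a pseudocount of 5, and by 37 to 57 with each sample left out (females 43 to 65). The share of all tested genes was not computed for these alternatives. ENSRNOG00000019050 lay between -0.78 and 2.28 in males and between -0.89 and 2.39 in females with each sample left out, negative without male IH LPS replicate 1 and without female IH LPS replicate 3. Each fit without a sample had fewer samples; beyond that the cause was not tested. The rule itself gave 59 to 87 members with each Nx sample left out (without male Nx LPS replicates 1, 2 and 3: 61, 87 and 59).

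With the replicate number as a block, 72 members were called with the sexes averaged (4.25% of all tested genes called higher), 25 in males (0.342%), 49 in females (1.87%), and 0 for both sex comparisons. The numbers were not shown to pair the samples: over 18 pairs with the same number the mean correlation of deviations was 0.069 (-0.299 to 0.370), 9 were over 0.1, other pairs had -0.035, and 6 of 12 samples matched best with their own number.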
